A study of Mus musculus with 8 samples.

Results

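The cells described here were tumor lymphatic endothelial cells with high expression of Cd24a and Scn3a, selected on the measured UMIs of these genes. They numbered 782 of the 4019 lymphatic cells that passed a gate, or 19.5% (exact binomial 95% interval 18.2 to 20.7%), in a study of 7635 cells in all. A cell passed the gate with fewer than 20 unique molecular identifiers (UMIs, 1 per captured RNA molecule) of the pigment genes Dct, Tyrp1, Pmel and Tyr together and at least 1 UMI of Prox1, Lyve1 or Mmrn1. Each cell was then scored for 5 gene sets by the mean of log(1 + UMIs per 10000), expressed as z over the gated cells: Cd24a and Scn3a (set A), Tppp3 and Igfbp5 (set B), Npy, Ndufa4l2 and Pgf (set C), Lsr, Postn and Foxp2 (set D), and Cd74, Ccl2 and Vcam1 (set E). Members had set A as their highest z, above 0.5. The levels of Cd24a and Scn3a, and every difference from the other gated cells, therefore describe cells chosen by the same values, and no test was made.

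The study sorted lymphatic (LEC) and blood vascular (BEC) endothelial cells from MT-ret melanoma, a transplantable mouse tumor, with 10000 cells sorted of each type. The tumors grew from fragments placed on the ventral flank of mice, 10 in all, of strain C57BL/6N. Neither sort was treated, and no tumor-free lymphatic cells were used here. Each sort gave 4 libraries with 10x Chromium 3′ v2 chemistry, but the columns of the count matrix name the sort and no library. All members therefore come from 1 sample, the LEC sort, with no replicate, and the comparison cells are the other 3237 gated LEC of that sample: 745 of set B, 437 of set C, 585 of set D, 511 of set E and 959 above 0.5 in no set.

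Lymphatic endothelial cells line the vessels that take up tissue fluid and leukocytes. Blind-ended capillaries lead into collecting vessels, whose valves keep lymph moving in one direction, and the transcription factor Prox1 holds the lymphatic identity of both. CD24, encoded by Cd24a, is a short, heavily glycosylated protein anchored to the outer membrane that serves as a ligand of sialic acid-binding receptors and P-selectin. Scn3a encodes the pore of a voltage-gated sodium channel (Nav1.3) best known from neurons.

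Members and the other gated LEC were of nearly equal depth, with medians of 10556 and 10590 UMIs and 1894.5 and 1890 genes per cell. Mitochondrial UMIs made up a median of 3.63% in members and 3.07% in the others. In the LEC sort 279 cells were set aside as pigmented and 109 for lack of a lymphatic UMI, and 34 cell barcodes occurred in both sorts, 4 of them in members and 29 in other gated LEC. No doublet caller was run. Levels are in CPM, summed UMIs per gene relative to the total over a cell set, and 1 UMI was worth 0.108 CPM in members and 0.0245 CPM in the other gated LEC. Intervals on levels (exact Poisson), ratios (exact conditional binomial) and shares (exact binomial) are 95% intervals of counting error alone.

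The lymphatic label held on markers that the gate did not use. The VEGF-C receptor gene Flt4 was at 347 CPM in members and 332 CPM in the other gated LEC, podoplanin (Pdpn) at 352 and 451 CPM, Reln at 258 and 201 CPM, and the chemokine gene Ccl21a at 22460 and 25526 CPM. Near-identical copies of Ccl21a exist, so its level is uncertain. Markers of most non-endothelial cell types were scarce. The 7 T and NK cell markers had no UMI in members and summed to 0.466 CPM in the others. Pan-leukocyte markers, 5 in number, summed to 2.37 CPM in members and 3.70 CPM in the others, the 7 epithelial markers to 0.755 and 3.19 CPM, the 8 macrophage markers to 41.3 and 84.8 CPM, and the 8 mural markers to 15.3 and 45.4 CPM. The 9 melanocytic markers outside the gate summed to 79.3 CPM in members and 91.3 CPM in the others. The 8 fibroblast markers summed to 459 CPM in members and 676 CPM in the others, of which podoplanin made up 352 and 451 CPM and decorin (Dcn) 102 and 195 CPM, with 490 CPM of Dcn in set E, while the collagen genes Col1a1, Col1a2 and Col3a1 were at 0.755 to 2.91 CPM in members and 5.61 to 14.8 CPM in the others.

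The rule drew on both genes, but most members carried both. UMIs of Cd24a and Scn3a were both present in 483 members (61.8%), Cd24a alone in 188 (24.04%) and Scn3a alone in 111 (14.2%). Outside the members, 178 of 3237 gated LEC (5.50%) had UMIs of both. Cd24a (chromosome 10, 43578284 to 43584265, plus strand, GRCm38) had a median of 5 UMIs per member, with quartiles of 3 and 9.75 and a maximum of 79. Scn3a (chromosome 2, 65457118 to 65567627, minus strand) had a median of 4, quartiles of 1 and 7 and a maximum of 27. The medians in the other gated LEC were 0 for both genes.

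After every cell was thinned to 5000 UMIs, Cd24a was detected in 77.4% of members (74.3 to 80.3%) and in 21.6% of the other gated LEC. Scn3a was detected in 66.5% of members (63.1 to 69.8%) and in 15.6% of the others. The pigmented cells of the LEC sort, which share its free RNA, showed a Cd24a UMI in 3.94% of cells and a Scn3a UMI in 4.66%, and BEC, which came from other libraries, in 0.836% and 0.558%. Both genes were thus also detected in other lymphatic cells, more often than in the pigmented cells. Unthinned median depths were 10556 UMIs in members, 10590 in the other gated LEC, 19416 in BEC and 27894 in pigmented cells.

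The limit of the set was gradual. The 10 members with the lowest z (0.5003 to 0.516) together held 22 Cd24a and 24 Scn3a UMIs, and the 10 cells just outside (0.479 to 0.499) held 19 and 22. A further 244 cells had set A as their highest set at a z of 0.5 or less, 352 cells passed 0.5 for set A but scored higher for another set, and 155 members led their next set by a z of less than 0.5. The other sets carried unequal amounts of the 2 genes. Scn3a was at 405 CPM in members and 141 CPM in set C, and at 29.5 to 78.3 CPM in sets B, D and E. Cd24a was at 606 CPM in members and at 88.8 to 134 CPM in sets B to E.

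**Figure D1:**
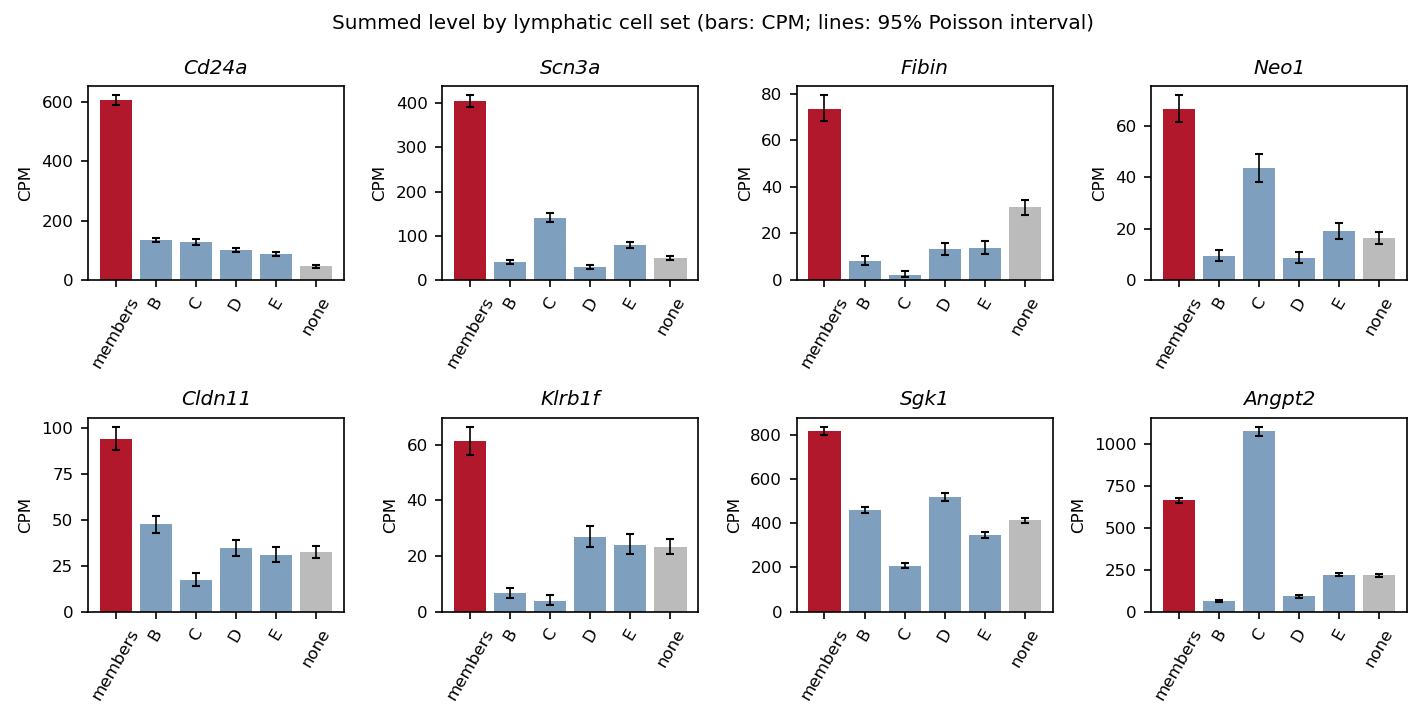
Levels of 8 genes (y axes, CPM) in members, the 4 other scored sets (B to E) and the gated cells of no set, with bars for the summed level and lines for the 95% Poisson interval. Cd24a and Scn3a chose the members. Fibin, Neo1, Cldn11, Klrb1f and Sgk1 were highest in members, while Angpt2 was higher in set C (1074 CPM) than in members (662 CPM).

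Few genes set the members apart from the other gated LEC. Genes were compared where the higher group had at least 50 CPM. Leaving out the 13 scored and 7 gate genes, 3277 remained, of which 64 (1.95%) were at least 1.5-fold higher in members and 101 (3.08%) at least 1.5-fold lower, on the scale log2(CPM + 1). With the scored and gate genes counted in, the numbers were 66 (2%) and 110 (3.34%) of 3292. The median log2 ratio over all 3292 genes was -0.01. Because members were also chosen for a lower z in sets B to E, genes that go with those sets are lower in members in part by construction, and members were set against each set in turn. They had 155 (4.65%) higher and 168 (5.04%) lower genes against set B, 426 (12.5%) and 335 (9.81%) against set C, 125 (3.76%) and 157 (4.73%) against set D, and 161 (4.81%) and 231 (6.9%) against set E. Of the 64 higher genes, 22 were at least 1.5-fold above each of the 4 sets, among them Fibin, Neo1, Klrb1f, Cldn11, Sgk1, Nfatc1 and Id2.

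The gene with the highest ratio was Fibin, which encodes a small secreted protein first described in fin bud formation in zebrafish. It was at 73.6 CPM in members (68.1 to 79.3) and 15.9 CPM in the other gated LEC (14.7 to 17.2), 4.62-fold higher (4.15 to 5.16). Its level was 2.29 CPM in set C and 8.29 to 13.9 CPM in sets B, D and E, and 31.2 CPM in the cells of no set, so no group of other lymphatic cells reached that of members. Fibin was read in 14.7% of members, and was at 1.14 CPM in BEC.

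Neo1 encodes neogenin, a receptor for netrins and repulsive guidance molecules. It stood at 66.6 CPM in members and 17.7 CPM in the other gated LEC, 3.77-fold higher (3.38 to 4.20), and at 43.5 CPM in set C. Cldn11, a tight junction claudin, was at 94.3 CPM in members and 33.5 CPM in the others, 2.81-fold higher (2.58 to 3.07), and at 47.5 CPM in set B. Klrb1f, a C-type lectin-like receptor gene of the family best known from natural killer cells, was at 61.3 and 17.97 CPM, 3.41-fold higher (3.05 to 3.81). The Klrb1 genes resemble each other, so this level is less certain.

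The start regions of these 4 leading genes are shown because they differ strongly in CpG content although the genes share the highest ratios. The sequences are those of RefSeq (GRCm38.p6), 250 bases before to 50 after the gene start, 5′ to 3′ on the gene's strand, with each CG in capitals. Fibin lies at chr2:110362944-110363243 (minus strand), Neo1 at chr9:59036392-59036691 (minus), Klrb1f at chr6:129045651-129045950 (plus) and Cldn11 at chr3:31149670-31149969 (plus).
Fibin: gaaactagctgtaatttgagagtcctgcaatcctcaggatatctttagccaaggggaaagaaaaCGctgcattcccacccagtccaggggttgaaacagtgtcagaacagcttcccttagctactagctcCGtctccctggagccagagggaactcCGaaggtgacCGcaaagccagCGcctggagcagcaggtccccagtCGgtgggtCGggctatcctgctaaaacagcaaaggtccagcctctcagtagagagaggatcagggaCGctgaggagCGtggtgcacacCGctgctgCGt
Neo1: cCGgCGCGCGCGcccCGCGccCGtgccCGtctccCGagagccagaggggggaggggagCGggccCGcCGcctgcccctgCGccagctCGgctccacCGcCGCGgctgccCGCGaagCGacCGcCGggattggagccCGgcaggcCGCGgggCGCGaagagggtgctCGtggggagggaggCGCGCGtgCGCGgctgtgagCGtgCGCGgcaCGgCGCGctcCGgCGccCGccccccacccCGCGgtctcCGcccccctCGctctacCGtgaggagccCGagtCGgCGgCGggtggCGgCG
Klrb1f: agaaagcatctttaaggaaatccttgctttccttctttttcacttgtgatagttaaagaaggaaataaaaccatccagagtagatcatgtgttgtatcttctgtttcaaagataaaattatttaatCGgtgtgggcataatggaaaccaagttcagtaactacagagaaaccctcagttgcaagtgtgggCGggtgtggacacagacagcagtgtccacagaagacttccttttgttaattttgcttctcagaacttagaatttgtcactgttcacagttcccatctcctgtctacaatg
Cldn11: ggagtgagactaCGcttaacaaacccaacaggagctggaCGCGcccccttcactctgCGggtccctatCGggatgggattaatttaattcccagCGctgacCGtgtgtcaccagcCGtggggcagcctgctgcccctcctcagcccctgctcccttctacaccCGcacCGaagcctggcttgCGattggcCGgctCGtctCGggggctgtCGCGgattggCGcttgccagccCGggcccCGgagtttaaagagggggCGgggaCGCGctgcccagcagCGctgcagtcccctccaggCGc
Neo1 had 54 CG dinucleotides and Cldn11 24, against 11 in Fibin and 2 in Klrb1f. Over 32851 promoters of the same 300 bases the median was 7 (quartiles 3 and 20), 94.6% held at least 1 CG, 0.347% held at least 54 and 19.98% at least 24. The 4 genes thus span nearly the whole range of CpG content, and the letters CG are the only motif searched. The table held no entry for Cd24a or Scn3a.

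Sgk1, a kinase known to regulate sodium transport and channels, was also among the leading genes. It was at 819 CPM in members and 402 CPM in the others, 2.04-fold higher (1.98 to 2.09), and at 208 to 519 CPM in sets B to E. Scn11a, the pore gene of a sodium channel of sensory neurons, had 44 UMIs (4.75 CPM) in members and 27 UMIs (0.662 CPM) in the others, a ratio of 7.17 (4.34 to 12.04) at a level far under the limit of 50 CPM.

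Genes known as CD24 partners were mostly at low levels. Selp, encoding P-selectin, was at 9.82 CPM in members and 25.3 CPM in the others, and at 83.0 CPM in set E. Hmgb1, a nuclear protein that binds CD24 when released, was at 701 and 665 CPM, and the kinase genes Lyn and Fyn were at 128 and 119 CPM and at 34.0 and 46.1 CPM. Of 12 genes on this list 2 reached 50 CPM and neither was past 1.5-fold, too few to set beside the 1.95% higher and 3.08% lower over all genes. St8sia6, a sialyltransferase that makes ligands of sialic acid-binding receptors, was at 52.0 CPM in members and 25.5 CPM in the others, 2.04-fold higher (1.82 to 2.27).

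Among the other leading genes, Angpt2, the vessel-destabilising ligand of the receptor Tek, was at 662 CPM in members and 281 CPM in the other gated LEC, 2.36-fold higher (2.28 to 2.43). It was not particular to members, since set C had 1074 CPM and the BEC sort 728 CPM, while sets B and D had 62.4 and 90.0 CPM. Tek itself was at 31.3 CPM in members and 67.4 CPM in the others, 0.464 times the level (0.410 to 0.524), with 91.9 CPM in set B and 102 CPM in set D. It was under 50 CPM in sets C and E. Tek reached 50 CPM only in the others, so it could be counted only as lower. Tie1 (162 and 142 CPM) and the phosphatase gene Ptprb (74.1 and 73.5 CPM) lay within 1.5-fold.

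The remaining leading genes covered several roles. Ank, a transporter of pyrophosphate precursors, was at 92.2 CPM in members and 37.9 CPM in the others, and Tbc1d4, a regulator of glucose transporter traffic, at 105 and 48.8 CPM. Odc1, which starts polyamine synthesis, was at 139 and 59.1 CPM, with 106 CPM in set C. The matrix genes Thbs1 (283 and 130 CPM, with 262 CPM in set E) and Tgfbi (112 and 51.4 CPM) and the regulators Id2 (134 and 65.4 CPM) and Nr4a1 (124 and 65.9 CPM) were also higher. Cyp4b1, a cytochrome P450, was at 67.7 CPM in members and 26.4 CPM in the others but at 393 CPM in the pigmented cells, and Cd1d1, which presents lipid antigens and has a close copy in the genome, was at 71.8 and 33.6 CPM. Crim1, G0s2 and Tspan6 were also among the 20 leading genes, at ratios of 1.85 to 1.92.

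**Figure D2:**
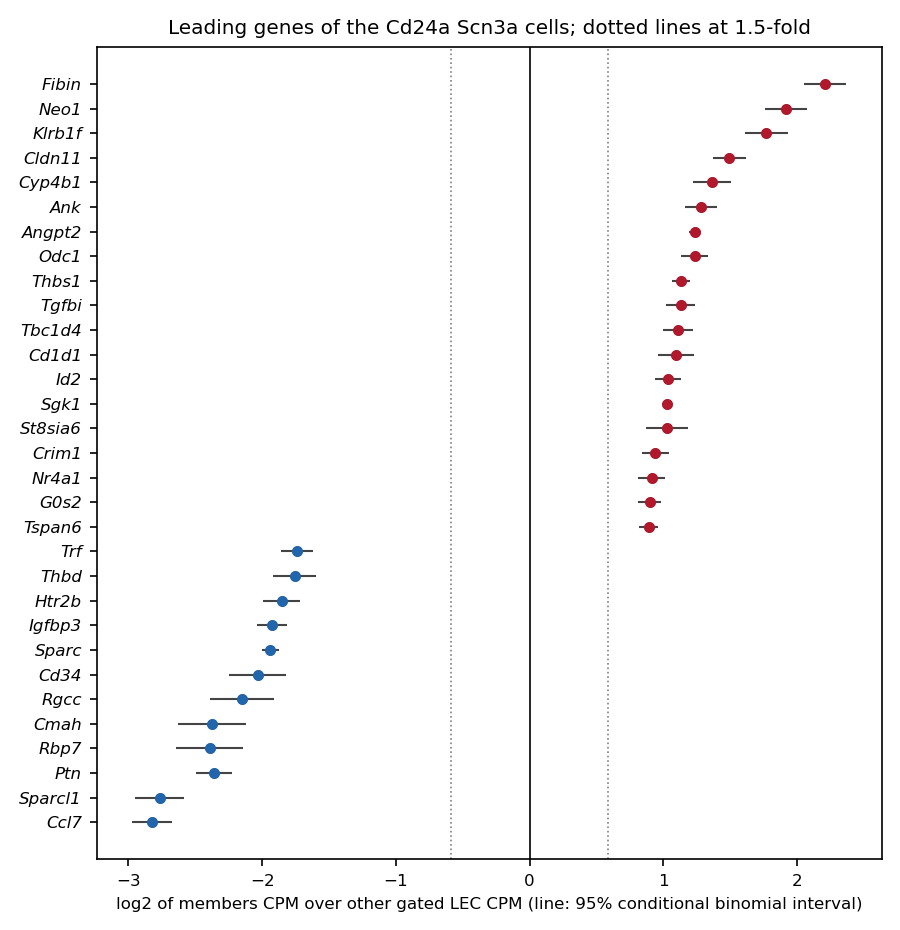
Ratio of members over other gated LEC (x axis, log2 of CPM over CPM) for 19 of the 20 leading higher genes (red) and the 12 leading lower genes (blue), with 95% conditional binomial intervals and dotted lines at 1.5-fold. Fibin (4.62-fold) and Neo1 (3.77-fold) lead, and Ccl7 and Sparcl1 have the lowest ratios.

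Genes known from lymphatic valves were divided. Of 16 genes on the list 10 reached 50 CPM, and 5 of these were at least 1.5-fold higher in members and 0 lower, beside 1.95% higher over all genes. They were Neo1, Cldn11 and Angpt2, with the values above, the transcription factor gene Nfatc1, which takes part in valve formation, at 119 CPM in members and 65.5 CPM in the others (1.82-fold, 1.70 to 1.95), and fibronectin (Fn1) at 783 and 507 CPM (1.54-fold, 1.503 to 1.59). Neo1 and Cldn11 passed 50 CPM only in members, so they had to differ to be counted. The list median over the 14 genes at 10 CPM or more was 0.26 on the log2 scale, beside 0.01 over 7993 genes at that level.

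The genes that most define valve cells did not go with these 5. Foxc2, the transcription factor that valves require, was at 68.7 CPM in members and 64.1 CPM in the others (ratio 1.07, 0.981 to 1.17), and at 103 CPM in set D. Itga9, the integrin chain of valve leaflets, was at 42.5 and 47.8 CPM, and Gata2, a regulator of valve development, at 47.2 and 39.0 CPM. The connexin genes Gja4 (326 and 276 CPM) and Gja1 (282 and 329 CPM) also lay within 1.5-fold. Against set D the list median was -0.13. Yet 6 of 11 genes were at least 1.5-fold higher and 0 lower, beside 3.76% higher over all genes. Of these, Neo1 and Cldn11 (8.52 and 34.6 CPM in set D) reached 50 CPM only in members. Against sets B, C and E the median was 0.51, 0.63 and 0.37. Piezo1, a force-gated channel gene with a role in valve formation, was at 70.7 CPM in members and 43.1 CPM in the others (1.64-fold, 1.497 to 1.79). With set A scored from Cd24a alone, Fn1 (log2 ratio -0.061) and Piezo1 (0.41) no longer passed 1.5-fold, and with Scn3a alone Cldn11 (0.52) and Piezo1 (0.53) did not.

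**Figure D3:**
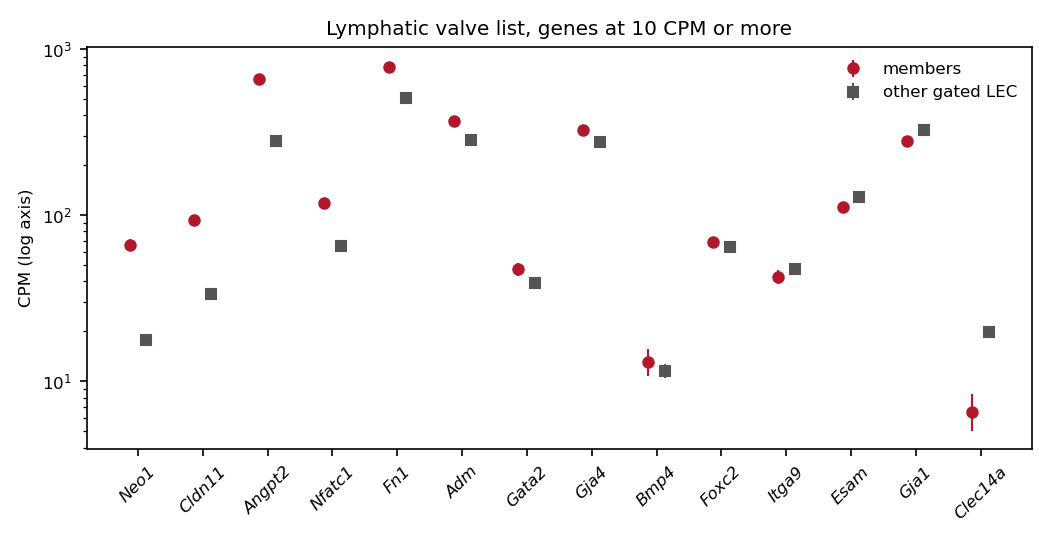
Levels of the 14 lymphatic valve genes at 10 CPM or more (y axis, CPM on a log axis) in members (circles) and other gated LEC (squares), ordered by ratio, with 95% Poisson intervals. Neo1, Cldn11, Angpt2, Nfatc1 and Fn1 stand apart, and Foxc2, Itga9 and Gata2 do not.

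Lymphatic identity genes were mostly within 1.5-fold. Of the 12 outside the gate 0 were higher and 1 lower, beside 1.95% higher and 3.08% lower over all genes. For a list this short, that is no result about it. The lower gene was Nrp2, a co-receptor for VEGF-C and semaphorins, at 176 CPM in members and 275 CPM in the others (0.641 times, 0.608 to 0.675). Thy1 was at 497 and 365 CPM and Tbx1 at 165 and 122 CPM. The guidance ligand gene Sema3a was also lower, at 52.0 CPM in members and 97.1 CPM in the others, and at 91.3 to 135 CPM in each other set. Both lay within 1.5-fold when set A was scored from Scn3a alone, at log2 ratios of -0.20 for Nrp2 and -0.43 for Sema3a. The collecting vessel genes Foxp2 and Lsr, which belong to the rule of set D, were at 18.2 and 2.48 CPM in members and at 162 and 92.2 CPM in set D.

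Of the 101 lower genes, 14 were at least 1.5-fold under each of sets B to E, and several of the leading ones were high in 1 or 2 of those sets. Ccl7, a monocyte chemokine, was at 41.6 CPM in members and 294 CPM in the others, with 1304 CPM in set E. Ptn, a growth factor, was at 49.8 and 256 CPM, with 621 CPM in set B and 296 CPM in set D. The serotonin receptor gene Htr2b (49.9 and 180 CPM) and the anticoagulant thrombomodulin gene Thbd (38.2 and 129 CPM) were high in sets B and D, at 309 and 296 CPM and at 208 and 227 CPM, while set C resembled members at 56.4 and 41.0 CPM. Inhba, encoding an activin subunit, had 0 UMIs in members, for which the Poisson interval reaches 0.398 CPM, and 9.71 CPM in the others, with 45.5 CPM in set B.

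A second group of lower genes is abundant in blood endothelium. Sparc was at 245 CPM in members and 938 CPM in the others, Sparcl1 at 27.2 and 185 CPM, Cd34 at 20.7 and 84.5 CPM and Rgcc at 16.6 and 73.6 CPM. Their highest levels among gated cells were in the cells of no set, at 1581, 443, 114 and 144 CPM. After thinning, Sparc was detected in 33.8% of members and 48.0% of the others, Cd34 in 5.12 and 14.9%, and Rgcc in 4.73 and 9.64%. Sparcl1 was detected in 10.7% (8.66 to 13.1%) and 12.1%. Its ratio thus lies mainly in its level where detected, not in the share of cells. Pigmented cells of the LEC sort also carried Sparc (100%), Sparcl1 (99.3%) and Rgcc (69.9%), but Cd34 in only 2.51%. Cells with more blood endothelial than lymphatic marker UMIs made up 5 of the members (0.639%) and 69 of the others (2.13%), 39 of them in no set, and the 10 blood endothelial markers summed to 786 CPM in members and 1118 CPM in the others. Without cells with 5 or more UMIs of Flt1, Esm1, Nrp1, Cd93, Aplnr and Col15a1 the log2 ratios were -1.55 for Sparc (-1.93 with them), -2.47 for Sparcl1 (-2.72), -1.54 for Cd34 (-1.98) and -1.30 for Rgcc (-2.08). Sparc, Sparcl1 and Cd34 were also at least 1.5-fold lower in members than in each of sets B to E. Igfbp3 was at 75.5 CPM in members and 287 CPM in the others, and a single cell held 44.4% of its UMIs in members.

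Glycolysis and hypoxia genes were lower in members mainly in comparison with set C, which the hypoxia-linked genes Ndufa4l2 and Pgf had helped to choose. Against all other gated LEC, 7 of 12 glycolysis genes at 50 CPM were lower and 0 higher, beside 3.08% lower over all genes, such as Pkm at 350 CPM in members and 634 CPM in the others and the lactate exporter gene Slc16a3 at 21.9 and 69.0 CPM. Of 9 hypoxia genes 5 were lower, such as Bnip3 at 36.5 and 106 CPM and the glucose transporter gene Slc2a1 at 26.4 and 64.8 CPM, while 0 were higher. Slc16a3, Bnip3, Slc2a1, Egln3 and Ankrd37 reached 50 CPM only in the others, so they could be counted only as lower. Against set C alone, 14 of 14 and 11 of 11 genes were lower, beside 9.81% lower over all genes. Any that reached 50 CPM only in set C could be counted only as lower. Against sets B and D the list medians lay between -0.07 and 0.23, with 0 glycolysis genes past 1.5-fold in either direction. Against set E 2 of 10 glycolysis genes were lower, beside 6.9% over all genes. With set C left out of the comparison cells, the log2 ratio of Pkm was -0.30 (-0.85 with it) and that of Slc2a1 -0.01 (-1.26).

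Adm, a hypoxia-induced peptide gene needed for lymphatic growth, was at 371 CPM in members and 286 CPM in the others. Its level was 899 CPM in set C, 346 CPM in set E and 61.3 CPM in set B, so members were intermediate. Within members, hypoxia genes were higher where Angpt2 and Neo1 were highest, in the cells with UMIs of Scn3a alone. Compared with the cells with Cd24a alone, 5 of 8 hypoxia genes at 50 CPM were higher and 0 lower, beside 11.2% higher over all genes. The 5 were Adm, Egln3, Higd1a, Ankrd37 and P4ha1, and the list median was 0.80 on the log2 scale. Ankrd37 reached 50 CPM only in the cells with Scn3a alone (59.5 against 30.7 CPM), so it could be counted only as higher. A single cell held 25.4% of its UMIs there, and a single cell 17.3% of those of Adm. Of 11 glycolysis genes 2 (Gpi1 and Pkm) were higher and 0 lower, with a median of 0.44, too few to set beside the 11.2% over all genes.

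**Figure D4:**
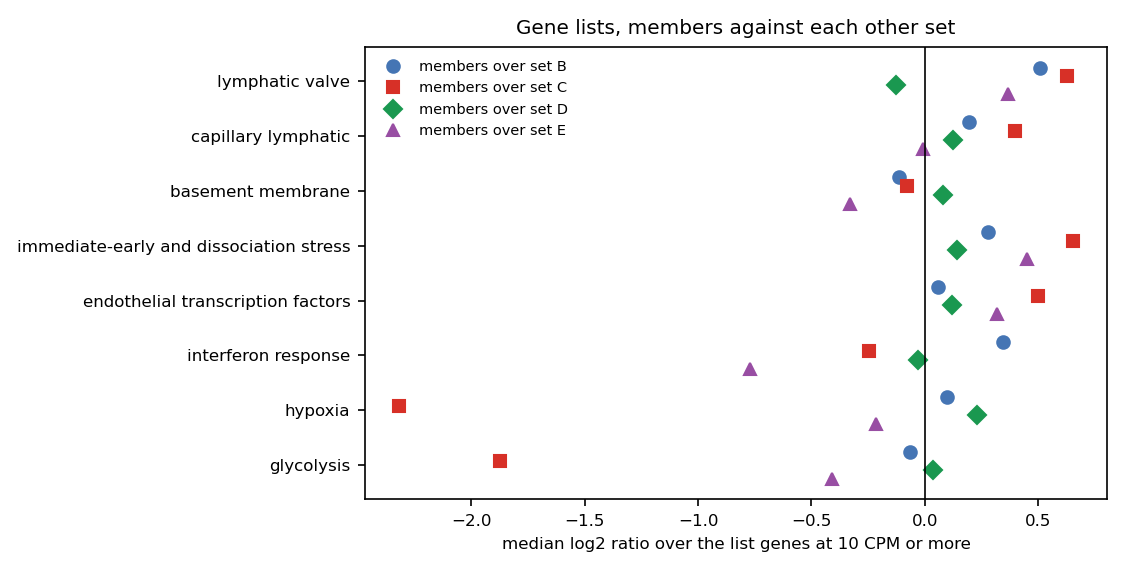
Median log2 ratio of members over each other set (x axis) for 8 gene lists (y axis), over list genes at 10 CPM or more. Glycolysis and hypoxia genes were low against set C and near 0 against sets B and D, while valve genes were above 0 against sets B, C and E and at -0.13 against set D.

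Immediate-early genes, which respond to flow, growth factors and cell dissociation alike, were on the high side. Of 16 such genes at 50 CPM, Nr4a1, Klf4, Klf6 and Atf3 were at least 1.5-fold higher in members and 0 lower, beside 1.95% higher over all genes. Klf4 was at 1033 CPM in members and 642 CPM in the others (1.61-fold), Klf6 at 698 and 438 CPM (1.59-fold) and Atf3 at 303 and 191 CPM (1.59-fold). The flow-induced Klf2 was at 3525 and 2440 CPM and Fos at 4993 and 3598 CPM, both under 1.5-fold. The list median was 0.32, and it was 0.14 to 0.65 against the 4 sets in turn. With set A scored from Scn3a alone none of the 4 passed 1.5-fold, at log2 ratios of 0.24 for Nr4a1, 0.34 for Klf4, 0.37 for Klf6 and 0.091 for Atf3. Klf6 was at 0.56 with Cd24a alone, and Atf3 at 0.49 with z above 0, at 0.53 with cells thinned before the gate and at 0.54 against sets B to E. The part that cell dissociation plays in these levels was not tested.

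The share of cycling cells lay close to that of the rest. After thinning to 5000 UMIs, 18.2% of members (142 of 782, 15.5 to 21.0%) and 18.9% of the other gated LEC (613 of 3237, 17.6 to 20.3%) had at least 2 UMIs of 10 cell cycle genes. At full depth these were 30.3% and 33.0%, and the 10 genes summed to 332 CPM in members and 421 CPM in the others. The thinned share was 13.3% in set C, 13.8% in set D, 19.9% in set B, 23.1% in set E and 21.7% in no set.

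The members were not uniform. Across the 782 members the counts of Cd24a and Scn3a ran against each other (Spearman rho -0.37), which the rule in part imposes, while over all 4019 gated cells rho was 0.13. The 111 members with Scn3a alone were set against the 188 members with Cd24a alone, a split made on the 2 rule genes and chosen after values of other genes had been seen. Of 3528 genes at 50 CPM, 395 (11.2%) were at least 1.5-fold higher in the Scn3a-only and 306 (8.67%) at least 1.5-fold lower. These 2 groups held 1058901 and 1821617 UMIs, so their counting error is larger. Median depth was 8371 and 8872.5 UMIs, and the median mitochondrial share 4.79% and 3.28%.

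The Scn3a-only members had higher levels of Fn1 and of many capillary lymphatic and basement membrane genes. Fn1 was at 1624 CPM in Scn3a-only members, 761 CPM in members with both genes and 373 CPM in Cd24a-only members, a ratio of 4.36 (3.98 to 4.77) between the first and the last. The pattern recognition gene Ptx3 was at 565, 207 and 166 CPM in the same order, and Angpt2 at 804, 746 and 285 CPM. The scavenger receptor genes Stab1 (843, 457 and 373 CPM) and Mrc1 (72.7, 18.5 and 9.88 CPM), both capillary lymphatic genes, ran likewise. Of 9 capillary lymphatic genes at 50 CPM 6 were higher and 0 lower in Scn3a-only members, and of 10 basement membrane genes 6 were higher and 0 lower, among them Lamc1 (131 against 77.4 CPM in Cd24a-only members) and Hspg2 (97.3 against 46.7 CPM), beside 11.2% higher over all genes. Mrc1, Ackr2, Tnc, Lamb2 and Hspg2 reached 50 CPM only in Scn3a-only members, so they could be counted only as higher. The list of other matrix and remodelling genes was divided, with 5 higher and 3 lower of 15 and a median of 0.042 on the log2 scale.

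The Cd24a-only members carried more Klrb1f, Cldn11, Fibin and immediate-early genes. Klrb1f was at 17.0 CPM in Scn3a-only members, 60.4 CPM in members with both and 90.0 CPM in Cd24a-only members, and Cldn11 at 36.8, 95.5 and 124 CPM. Fibin was at 28.3, 79.3 and 79.6 CPM. Pdlim3, a muscle-type cytoskeletal gene with the lowest ratio among genes at 50 CPM that met the rule for named genes, was at 22.7, 83.6 and 121 CPM. Of 16 immediate-early genes 11 were lower in Scn3a-only members and 1, the heat shock gene Hspa1a, was higher, beside 8.67% lower over all genes. A single cell held 53.7% of the Hspa1a UMIs in Scn3a-only members. Fos was at 2827 CPM in Scn3a-only members, 4882 CPM in members with both genes and 6640 CPM in Cd24a-only members. Whether handling of the cells has a part in this split was not tested.

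The valve list divided along the same line. In Scn3a-only members Neo1 (100 against 41.2 CPM in Cd24a-only members), Itga9 (92.5 against 24.7 CPM), Fn1, Angpt2 and Adm were higher. Foxc2 (34.9 against 90.6 CPM), Gata2 (28.3 against 59.8 CPM), Cldn11, Gja4 (203 against 462 CPM) and Esam (51.0 against 137 CPM) were lower. Of 12 genes at 50 CPM, 5 were thus higher and 5 lower, beside 11.2% higher and 8.67% lower over all genes. Neo1 and Itga9 reached 50 CPM only in Scn3a-only members, so they could be counted only as higher. Foxc2, Gata2 and Cldn11 reached it only in Cd24a-only members and could be counted only as lower. Foxc2 and Itga9, which lay near the other gated LEC over all members, thus differed in opposite directions between the subsets. Prox1 was at 346 CPM in Scn3a-only and 343 CPM in Cd24a-only members, and Ccl21a at 25956 and 26110 CPM.

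**Figure D5:**
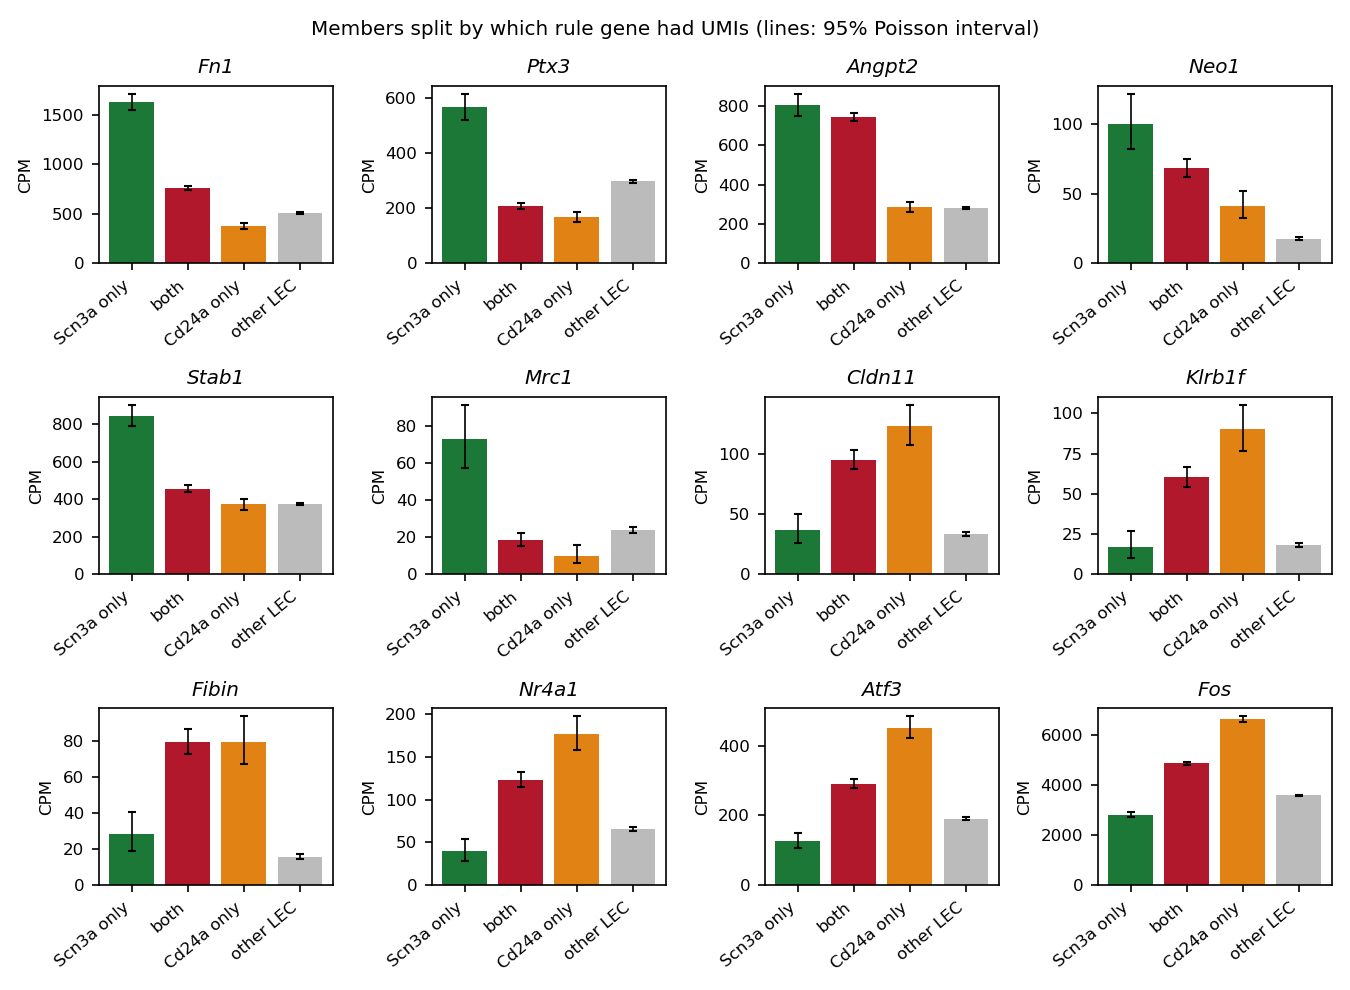
Levels of 12 genes (y axes, CPM) in members with UMIs of Scn3a only (n = 111), of both genes (n = 483) and of Cd24a only (n = 188), and in other gated LEC (n = 3237), with 95% Poisson intervals. Fn1, Ptx3, Angpt2, Neo1, Stab1 and Mrc1 were highest with Scn3a only, and Cldn11, Klrb1f, Nr4a1, Atf3 and Fos with Cd24a only.

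The same split was made in gated cells outside the members, which are other cells of the same sample. There, 547 cells had Scn3a alone and 754 had Cd24a alone. Of the 15 genes with the highest ratio among members 14 had a ratio above 1 and 7 were at least 1.5-fold higher, with a median log2 of 0.50. Fn1 was at 838 CPM in Scn3a-only and 327 CPM in Cd24a-only cells (2.56-fold, 2.46 to 2.68), Ptx3 at 504 and 174 CPM, and Angpt2 at 510 and 214 CPM. Of the 15 genes with the lowest ratio 12 had a ratio below 1 and 7 were at least 1.5-fold lower, such as Pdlim3 at 24.7 and 124 CPM, Clca3a1 at 128 and 381 CPM and Klrb1f at 11.2 and 35.3 CPM. No share over all genes was computed for this split outside the members, so both counts describe the chosen genes alone. Fibin went the other way, with 24.3 CPM in Scn3a-only and 14.96 CPM in Cd24a-only cells. Fos, at 3073 and 4086 CPM, had a ratio of 0.752, beside 0.426 among members. Scn3a was detected after thinning in 33.4% of set C cells, 20.5% of set E and 9.26 and 8.38% of sets B and D. Fn1, Angpt2 and Pdlim3 also differed between sets, at 945, 1074 and 9.69 CPM in set C. In sets B and D Fn1 was at 261 and 299 CPM, Angpt2 at 62.4 and 90.0 CPM and Pdlim3 at 160 and 108 CPM. Set membership was not held equal in this split, and its part was not tested.

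Levels of the leading genes along z of set A are a description, since the same score chose the members and, through them, these genes. With members cut into 3 groups of nearly equal size by z, from low to high, Neo1 was at 42.8, 50.9 and 108 CPM, Fibin at 44.4, 68.9 and 108 CPM, Odc1 at 75.9, 94.8 and 252 CPM and Angpt2 at 456, 531 and 1016 CPM. Tspan6 stayed at 204 to 268 CPM and Crim1 at 124 to 136 CPM. Cells just short of the rule were closer to members for some genes than for others. In the 352 cells above 0.5 for set A that scored higher for another set, Fibin was at 10.3 CPM and Cldn11 at 35.9 CPM, near the other gated LEC, while Angpt2 was at 619 CPM, near members, 108 of these cells being of set C. Over all 4019 gated cells the gene most like the set A score was Angpt2 (rho 0.31), followed by Fn1 (0.19), and the most unlike were Htr2b (-0.22) and Thbd (-0.21). All of these values share the depth of the cell.

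A few lymphatic cells in the BEC sort gave the only values from a different sample. There, 22 unpigmented cells had at least 10 UMIs of Prox1, Lyve1 and Mmrn1 together, and 5 of them met the rule on the scale of the LEC sort. Angpt2 was at 1479 CPM in these 5 (135 UMIs, in 4 cells) and 563 CPM in the rest of the 22, 2.63-fold higher (2.08 to 3.31). Of the 20 leading genes 15 were higher and 5 lower in the 5 cells, and of the 12 leading lower genes 0 were higher and 12 lower. Ccl7, Rbp7, Cmah, Htr2b, Thbd and Trf had 0 UMIs in the 5 cells. No share over all genes was computed between the 5 cells and the rest, so these counts have nothing to be set beside. Among the 22 cells, 3 had more blood endothelial than lymphatic marker UMIs, and 0 of these were among the 5. Their part in the lower genes was not tested. The UMIs of Fibin (11), Neo1 (8) and Cldn11 (15) came from 1 cell each, Klrb1f had none, and the sets of cells are too small to say more. Foxc2 had 0 UMIs in the 5 cells and 34 in the rest.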

How the data were processed

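The authors deposited 1 matrix of raw UMI counts per gene and cell, with 28692 gene symbols. Per the submitters' processing notes, the tool was Cell Ranger 2.1.1 and the genome mm10. How cells were filtered before deposit is stated in no source used here. Column names gave the sort and no library, so the LEC sort was 1 sample and no test, p-value or standard error was possible. The cells, gene lists, named genes and comparisons were chosen with earlier results of these data known. Counts were summed over cells, scaled to CPM and compared as log2(CPM + 1), at 50 CPM or more in the higher group and 1.5-fold. List medians used genes at 10 CPM or more outside the scored and gate genes.

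Named genes were the 20 highest and 12 lowest ratios among genes with a UMI in at least 10% of cells of the higher group and at most 10% of their UMIs in 1 cell, without mitochondrial, ribosomal, haemoglobin and model genes, together with members of the lists named. Some of the genes so chosen are not reported here. Genes of the split by Cd24a and Scn3a, and a few under 50 CPM such as Scn11a and Inhba, were named after their values were seen. Cells were thinned by drawing 5000 UMIs without replacement. Gene positions came from GENCODE M21 and start regions from RefSeq. The ratio and assignment steps were tested on simulated data (Python 3.11.15, numpy 2.4.6, scipy 1.17.1, pandas 2.3.3, matplotlib 3.10.9).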

Additional observations from a re-analysis of the deposited data

How the results depend on the processing

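The members are 1 set of cells from 1 sample, so leaving out a library was not possible, and differences between animals cannot be seen. No paired analysis was possible because the columns carry no library number. The number of members was 483 when UMIs of both genes were required, and their share of cycling cells was 15.4% at a z above 1, 30.3% without thinning and 28.0051% with 1 cycle UMI in place of 2. The counts of higher and lower genes were 147 and 234 at a minimum of 20 CPM, 609 and 1199 with no minimum, and 19 and 51 at 2-fold. Under the other alternatives for these counts, the values stayed within 1.5 times. Of the named genes, 77 were past 1.5-fold at the main setting, scored genes such as Cd24a and Scn3a among them. The rule chose on the scored genes, so the numbers of genes that kept their difference are in part fixed by it. With set A scored from Cd24a alone 66 of 77 kept their 1.5-fold difference, and Fn1 had a log2 ratio of -0.061 (0.63 with both genes). With Scn3a alone 55 of 77 kept it, and Cldn11 had a log2 ratio of 0.52 (1.47 with both genes) and Sgk1 0.42 (1.02). Fibin, Neo1, Klrb1f, Angpt2 and Nfatc1 passed 1.5-fold under both. Cells scored on Scn3a alone can still hold Cd24a UMIs. In the members with UMIs of Scn3a only, Klrb1f was at 17.0 CPM, beside 17.97 CPM in the other gated LEC. Fibin, Neo1, Angpt2 and Nfatc1 were higher in those members than in the other gated LEC. Fn1 was just under 1.5-fold with cells thinned before the gate (0.58), with both genes required (0.58), at a z above 0 (0.56) and without cycling cells (0.56). With set C left out of the comparison cells, an alternative added after the data were seen, 61 of 77 kept their difference and Pgf, a gene of the set C rule, had a log2 ratio of 0.76 (-1.25 with set C). Without cells with 5 or more blood endothelial UMIs, also added later, 76 of 77 kept it, and Gpihbp1 was at -0.38 (-0.93 with them). The median log2 ratio of all genes lay between -0.034 and 0.0017 in every setting. Genes with a level under 50 CPM in both groups entered no count of higher or lower genes unless the minimum was changed as given here.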

Other observations

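Several immune and vascular gene groups lie outside the comparisons above. Of 8 MHC class I genes and 7 interferon response genes at 50 CPM, and of 4 integrin, 4 sphingosine 1-phosphate and 3 Notch pathway genes, 0 were at least 1.5-fold apart in either direction, beside 1.95% higher and 3.08% lower over all genes, which for lists this short is no result about them. Against set E alone, which Cd74, Ccl2 and Vcam1 chose, 6 of 9 genes of each of the MHC class I and interferon lists were lower in members, beside 6.9% lower over all genes. Of 4 immune checkpoint genes Vsir was lower, at 26.6 CPM in members and 57.1 CPM in the others. Of 4 chemokine and scavenger genes Ccl7 (41.6 and 294 CPM, with 1304 CPM in set E) and Ackr3 were lower, beside 3.08% over all genes. Vsir and Ccl7 reached 50 CPM only in the others, so they could be counted only as lower. The Notch modifier gene Lfng lay just under the minimum, at 49.1 CPM in members and 24.5 CPM in the other gated LEC, and was named after its value was seen. The MHC class II genes outside the scored Cd74 summed to 43.0 CPM in members and 80.0 CPM in the others, with 0 at 50 CPM.

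Of 4 fatty acid uptake genes 3 were lower in members, beside 3.08% over all genes, and the list summed to 702 CPM in members and 1316 CPM in the other gated LEC. They were the fatty acid-binding protein gene Fabp4 (322 and 675 CPM, with 1759 CPM in set C), Apoe (22.0 and 113 CPM), which reached 50 CPM only in the others, and Gpihbp1 (149 and 286 CPM), which anchors lipoprotein lipase on capillaries and was at 3798 CPM in BEC. Without cells with 5 or more blood endothelial UMIs Gpihbp1 had a log2 ratio of -0.38 and no longer passed 1.5-fold. Of 4 secreted peptide genes 3 were lower, beside 3.08% over all genes. They were the pleiotrophin gene Ptn, Angptl4 (62.9 and 118 CPM) and Lgals3, encoding galectin-3 (208 and 494 CPM). Lgals3 was at 2167 CPM in set C and had a log2 ratio of -0.10 when set C was left out. Ptn (49.8 and 256 CPM) reached 50 CPM only in the others, so it could be counted only as lower. Ackr3, a scavenger receptor for adrenomedullin and CXCL12, was at 84.5 CPM in members and 149.9 CPM in the others, and at least 1.5-fold higher in each of sets B to E. Among endothelial transcription factors 2 of 19 at 50 CPM were higher in members, Klf4 and Nfatc1, and 0 lower. The shares over all genes were 1.95% higher and 3.08% lower, and the list median was 0.24 on the log2 scale. Of 14 matrix and remodelling genes Fn1, Thbs1 and Tgfbi were higher, and Mmp14 (146 and 258 CPM) and Adamts1 (92.6 and 148 CPM) lower, beside the same shares over all genes.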
